A study of Mus musculus with 6 samples.

Results

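The 6 mouse genes that encode enzymes writing or removing DNA methylation were examined in sorted liver ECs, namely the DNA methyltransferases Dnmt1, Dnmt3a and Dnmt3b and the TET dioxygenases Tet1, Tet2 and Tet3. They were chosen by name from the 24421 gene symbols of the count table, and all 6 were present in the counts and in the FPKM values, which scale the reads of a gene by its length and by the size of the library. All ECs came from wild-type C57BL/6J mice, which the methods describe as female, and were sorted as CD31+CD45- cells, with RNA taken from 50000 cells per sample. The young group held 3 samples from 10-week-old mice, and the aged group held 3 samples from mice of 127, 131 and 136 weeks, which are named here by those weeks. The methods call the samples independent but do not say whether each came from 1 mouse, so p-values measure the spread between these samples. No agent was given and no allele was altered in either group.

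DNA methylation in mammals is laid down mainly on the cytosine of CpG dinucleotides, and methylation of a CpG-rich promoter goes with a silent gene. Dnmt1 copies the pattern onto the new strand at replication, guided by Uhrf1, whereas Dnmt3a and Dnmt3b set new marks. The TET enzymes use 2-oxoglutarate and iron to oxidise 5-methylcytosine, after which base excision repair by Tdg or loss at replication restores the unmodified base. Loss of Dnmt3a or Tet2 in blood stem cells is a known route to clonal expansion with age. The data here are transcript levels, and DNA methylation itself was not measured.

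Library totals ran from 23001556 to 31651817 counts, so that 3 counts stood for 0.0948 to 0.130 CPM (counts scaled to library size). Pecam1 had between 1366 and 1635 CPM in the 6 samples, but it encodes CD31, on which the cells were sorted. The summed level of 16 endothelial markers was 27845 to 30765 CPM in young and 15907 to 22640 CPM in aged ECs. Of these markers 8, the sinusoidal genes Stab2, Clec4g and Oit3 among them, were lower in every aged than in every young sample. The same held for 8.33% of all genes tested. The log2 fold change of aged against young was above 0 for 4 of the 16. Among them Lyve1 had 391, 537 and 670 CPM in young and 660, 223 and 1506 CPM in the 127-, 131- and 136-week samples. The summed level of 9 pan-leukocyte markers was 16.4 to 26.9 CPM in the young samples and 54.1, 17.4 and 207 CPM in the 127-, 131- and 136-week samples. The leukocyte gene Ptprc, which encodes CD45, followed the same order in the aged samples, with 7.56, 1.28 and 25.6 CPM. In bulk RNA, fewer cells of a type and less RNA per cell cannot be told apart. Libraries of either age also differed in how many of their counts fell on Lars2 and Rn45s, symbols that collect ribosomal RNA reads. This share was 0.960% in the 127-week sample and 1.29% in young replicate 3 and at least 4.68% in the other 4 samples. Differences are therefore also given within the 2 samples with few such counts and the 4 samples with many.

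The substrate of these enzymes is shown by the 250 bases before the RefSeq start of 4 genes, with every CpG in capitals. Tet1 is shown because it was the only member whose ages did not overlap, Dnmt3b and Tet2 because their levels followed the share of Lars2 and Rn45s counts, and Dazl because it is a germline gene known to be silenced in somatic cells by methylation of its promoter. The sequences are those of RefSeq (GRCm38.p6), and each matched mm9 at 1 place, namely chr10:62350073-62350322 on the minus strand for Tet1, chr2:153474935-153475184 on the plus strand for Dnmt3b, chr3:133207355-133207604 on the minus strand for Tet2 and chr17:50432946-50433195 on the minus strand for Dazl. The RefSeq start of Tet1 lies inside the gene span of the GENCODE annotation given further on, whose outermost start is farther upstream.
Tet1: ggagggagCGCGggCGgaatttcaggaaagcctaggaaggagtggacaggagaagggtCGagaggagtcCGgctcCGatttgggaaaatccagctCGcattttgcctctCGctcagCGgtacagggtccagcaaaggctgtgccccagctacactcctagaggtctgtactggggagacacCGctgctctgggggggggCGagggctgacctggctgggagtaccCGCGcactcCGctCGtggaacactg
Dnmt3b: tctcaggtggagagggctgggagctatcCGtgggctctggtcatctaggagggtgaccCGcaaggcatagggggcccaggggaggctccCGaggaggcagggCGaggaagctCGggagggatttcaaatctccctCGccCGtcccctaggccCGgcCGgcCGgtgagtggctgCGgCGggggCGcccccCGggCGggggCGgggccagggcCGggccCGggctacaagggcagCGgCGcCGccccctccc
Tet2: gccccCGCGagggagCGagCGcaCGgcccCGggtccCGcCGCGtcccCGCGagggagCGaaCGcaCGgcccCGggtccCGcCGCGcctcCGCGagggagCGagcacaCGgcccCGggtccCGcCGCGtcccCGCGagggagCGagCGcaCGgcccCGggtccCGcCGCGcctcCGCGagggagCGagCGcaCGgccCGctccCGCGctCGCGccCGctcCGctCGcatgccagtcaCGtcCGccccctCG
Dazl: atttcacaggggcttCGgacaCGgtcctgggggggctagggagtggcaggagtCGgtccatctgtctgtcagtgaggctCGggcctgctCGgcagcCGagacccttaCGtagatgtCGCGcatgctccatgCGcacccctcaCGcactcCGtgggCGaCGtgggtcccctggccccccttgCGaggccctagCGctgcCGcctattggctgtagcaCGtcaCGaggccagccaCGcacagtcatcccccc
These windows held 15 CpGs for Tet1, 21 for Dnmt3b, 51 for Tet2 and 20 for Dazl. Of all 32851 RefSeq promoter windows of this length, 27.3% held at least as many as Tet1, 16.3% at least as many as Dnmt3b and 0.0670% at least as many as Tet2, and the median window held 6. All 6 members matched the promoter table, with 10 starts in all. The start of Tet3 had 17 CpGs, the 3 starts of Dnmt3a had 38, 40 and 15, and the 3 starts of Dnmt1 had 2, 7 and 26. Every member thus had a start whose window held more CpGs than the median, which says nothing about their methylation in these cells.

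The members lie on 6 chromosomes in the GENCODE annotation of mm9. Dnmt1 is at chr9:20711650-20757317, Dnmt3a at chr12:3806007-3914443, Dnmt3b at chr2:153475186-153513466, Tet1 at chr10:62267318-62361866, Tet2 at chr3:133126643-133207354 and Tet3 at chr6:83312367-83391672. Their exons together cover 5264 bases in Dnmt1, 16642 in Dnmt3a, 5106 in Dnmt3b, 14710 in Tet1, 9203 in Tet2 and 11086 in Tet3, against a median of 3630 bases over the tested genes with a length. Dnmt3a shares exon positions with the transcript Gm10485. No source used here gives the strand setting of the counting, and reads there cannot be told apart. No other gene was annotated over the exons of the other 5 members.

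Per length, Dnmt1 was the most abundant member in each sample and Tet1 the least abundant. In the deposited values Dnmt1 averaged 10.7 ± 1.31 FPKM in the young group and 10.6 ± 1.16 FPKM in the aged group (SD, n = 3 each). Tet3 followed with 4.38 ± 1.23 and 3.52 ± 0.050 FPKM, Dnmt3a with 3.88 ± 1.35 and 3.80 ± 0.999 FPKM, Tet2 with 2.12 ± 0.827 and 2.05 ± 0.511 FPKM, and Dnmt3b with 1.69 ± 1.06 and 2.43 ± 0.802 FPKM (SD, n = 3 each). Tet1 averaged 0.109 ± 0.0287 FPKM in the young group and 0.265 ± 0.0912 FPKM in the aged group (SD, n = 3 each). The lowest Dnmt1 value, 9.33 FPKM in the 131-week sample, lay above the highest value of any other member, 5.78 FPKM for Tet3 in young replicate 3. The highest Tet1 value, 0.369 FPKM in the 127-week sample, lay below the lowest value of any other member, 0.777 FPKM for Dnmt3b in young replicate 2. Between these ends the neighbours in the order were not separated by their spread, since the ranges of Tet3 and Dnmt3a, of Dnmt3a and Tet2, and of Tet2 and Dnmt3b each overlapped.

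**Figure D1:**
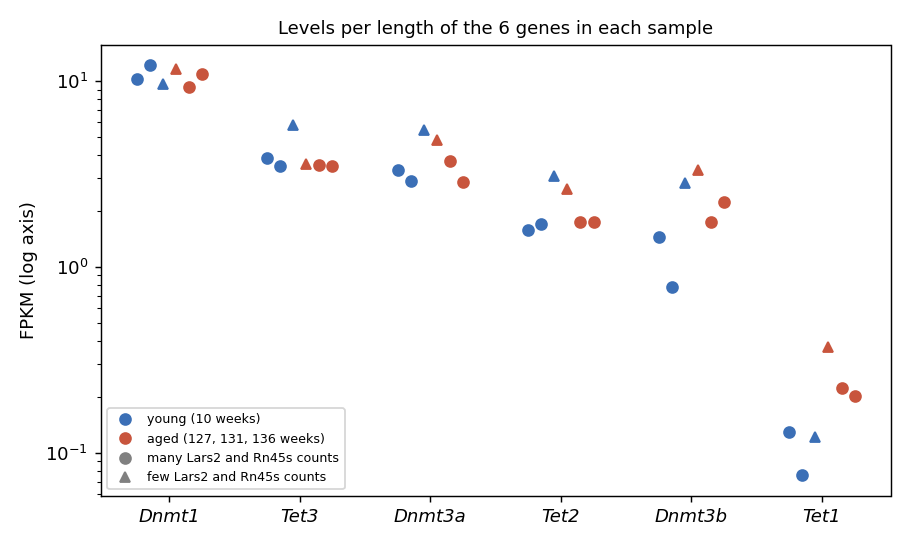
Deposited FPKM of the 6 genes (log axis), ordered by mean, with 1 point per sample, young in blue and aged in red, and triangles for the samples with few Lars2 and Rn45s counts. Dnmt1 lies between 9.33 and 12.2 FPKM in every sample and Tet1 between 0.0757 and 0.369 FPKM.

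By mean FPKM, 59.5% of the tested genes were below Dnmt1, 40.2% below Tet3, 39.7% below Dnmt3a, 30.9% below Tet2, 30.8% below Dnmt3b and 7.34% below Tet1. The transcripts of the maintenance enzyme Dnmt1 made up 54.0% to 76.9% of the summed FPKM of the 3 methyltransferases in the young samples and 58.7% to 68.3% in the aged samples. Within the TET family Tet3 made up 64.5% to 69.4% of the sum in young ECs, and 54.3%, 64.1% and 64.0% in the 127-, 131- and 136-week samples. The summed methyltransferase FPKM was 2.57 ± 0.519 times the summed TET FPKM in the young group and 2.88 ± 0.171 times in the aged group (SD, n = 3 each), and the ages overlapped. The ratio of Tet3 to Tet1 was 30.0, 45.9 and 47.9 in the young samples and 9.67, 15.9 and 17.2 in the 127-, 131- and 136-week samples, which did not overlap. The FPKM of Tet1 did not overlap between the ages either, so this ratio is not independent of Tet1.

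The comparison of aged with young ECs asked whether the transcripts of these enzymes differ with age. It was run over the 14612 genes that reached a CPM of 0.5 in 1 or more samples, and each of the 6 members had a CPM above 0.5 in all 6 samples. With edgeR's quasi-likelihood test, 0 of the 6 members passed an adjusted p of 0.05 and a log2 fold change beyond 1, as did 0% of all genes tested. At an unadjusted p below 0.05, 1 member, Tet1, was higher in aged ECs and none was lower. Of all genes 12.6% passed this level (1847 genes), with 8.32% higher and 4.32% lower. DESeq2 called 474 genes and limma-voom 15 at the adjusted threshold, and neither list held a member. The ages did not overlap for 1 of 6 members, again Tet1, where 17.9% of all genes did not overlap (9.62% higher and 8.33% lower in aged ECs), so that the share among the members was close to the background. The median log2 fold change was -0.021 over the 6 members and 0.0098 over all genes tested. Groups of 3 allow the exact permutation test no p below 0.1.

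**Figure D2:**
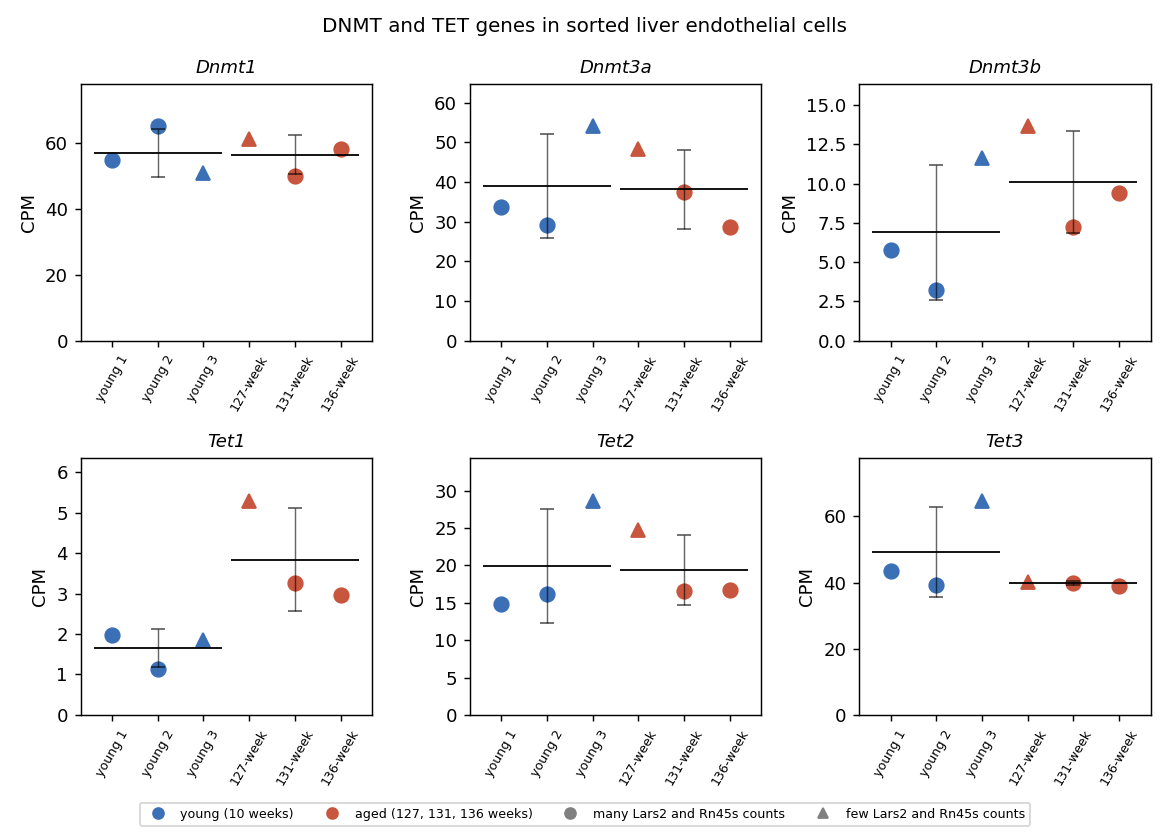
CPM of each gene in each sample (linear axes from 0), with the mean of each age as a line and the SD as a bar (n = 3 each), young in blue, aged in red, and triangles for the samples with few Lars2 and Rn45s counts. Tet1 is the only panel in which all 3 aged points lie above all 3 young points, and in the Dnmt3a, Dnmt3b and Tet2 panels both triangles lie above all circles.

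Tet1 transcripts were scarce at both ages and more frequent in each aged sample. Tet1, whose product starts the oxidation of 5-methylcytosine and which is best known from embryonic stem cells and germ cells, had 1.97, 1.13 and 1.86 CPM in young replicates 1, 2 and 3 and 5.29, 3.27 and 2.96 CPM in the 127-, 131- and 136-week samples. These values rest on 25 to 59 counts in the young and 73 to 154 counts in the aged samples. The lowest aged value was thus above the highest young value. The log2 fold change was 1.21 (standard error, SE, 0.41, 95% interval 0.25 to 2.17, p = 0.0198, adjusted p = 0.325 with edgeR), and the two-sided exact permutation test gave p = 0.1, the smallest it can give. Aged minus young, the log2 CPM differed by 0.85 among the 4 samples rich in Lars2 and Rn45s counts and by 1.30 between the 2 samples with few. Leaving out each sample in turn gave a log2 fold change between 0.91 and 1.37, and no setting brought the adjusted p below 0.101.

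Markers of other cell types were set beside Tet1. All 9 pan-leukocyte markers had a log2 fold change above 0, as had 51.1% of all genes tested. Their median log2 fold change was 2.04, and 5 were higher in aged ECs at an unadjusted p below 0.05 in edgeR, against 8.32% of all genes. For 1 of the 9 every aged value was above every young value, as it was for 9.62% of all genes. In the 131-week sample the pan-leukocyte sum was 17.4 CPM, within the young range, and Tet1 was 3.27 CPM. The summed level of 9 T and NK cell markers did not overlap between the ages, with 7.81, 8.71 and 9.87 CPM in the young samples. It was 20.5, 9.92 and 43.6 CPM in the 127-, 131- and 136-week samples, and the 131-week value was little above the highest young value. All 9 T and NK cell markers also had a log2 fold change above 0, with a median of 4.49. At an unadjusted p below 0.05 in edgeR, 6 were higher in aged ECs, against 8.32% of all genes. The median rests on genes near 0 in young ECs, since Cd3d, Cd3e, Cd3g and Cd8a had 0 to 3 counts in each young sample. In the 131-week sample 8.79 of the 9.92 CPM came from Lck, a kinase of T cells. Lck had 5.69, 6.90 and 8.90 CPM in the young samples. Cd3e was the only marker of the 9 that was higher in every aged than in every young sample, and it had 3 counts in the 131-week sample. With the mean of the leukocyte markers as a second term the Tet1 log2 fold change was 1.26 (adjusted p = 0.756 with edgeR). The sum of 4 cholangiocyte markers was 85.7 to 102 CPM in young and 181 to 228 CPM in aged ECs, with no overlap, and of the 4 only Spp1, a secreted matrix protein that cholangiocytes share with other cells, was separated by age. Epcam, Krt19 and Krt7, the epithelial markers of that list, overlapped, with 1.32 to 2.46 CPM of Krt7 in young and 1.98 to 4.43 CPM in aged samples. Beyond the fit with the leukocyte term, the part of the leukocyte, T and NK cell and cholangiocyte markers and of the lower sinusoidal genes in the Tet1 difference was not tested.

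**Figure D3:**
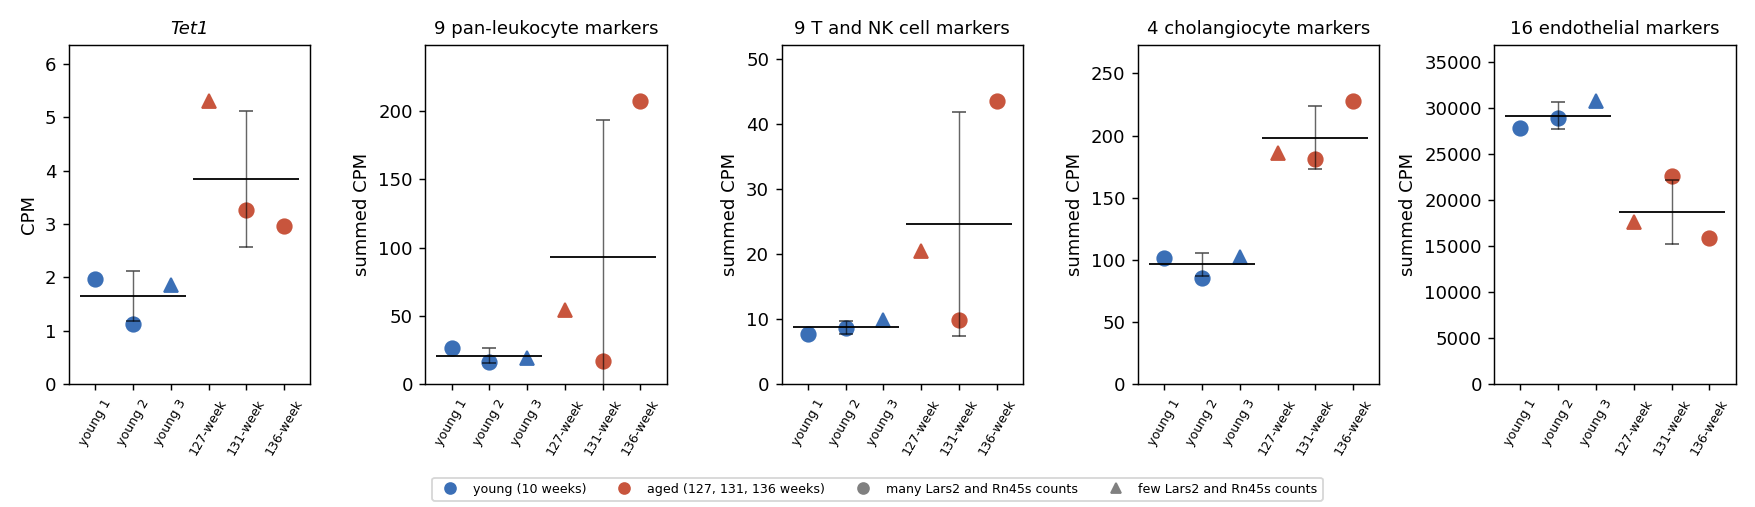
CPM of Tet1 and summed CPM of 9 pan-leukocyte, 9 T and NK cell, 4 cholangiocyte and 16 endothelial markers in each sample, with the mean as a line and the SD as a bar (n = 3 each). Tet1, the T and NK cell sum and the cholangiocyte sum are higher and the endothelial sum lower in all 3 aged samples. The T and NK cell sum of the 131-week sample, 9.92 CPM, is higher by little. The pan-leukocyte sum of the 131-week sample, 17.4 CPM, lies among the young samples.

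Tet2 and Tet3 overlapped between the ages. Tet2, the member that is frequently mutated in clonal blood disorders, had 14.9, 16.2 and 28.6 CPM in the young samples and 24.7, 16.6 and 16.8 CPM in the 127-, 131- and 136-week samples. Its highest values at either age came from the 2 samples with few Lars2 and Rn45s counts, and the ages overlapped. The log2 fold change was -0.039 (SE 0.30, 95% interval -0.75 to 0.67, adjusted p = 0.978). Tet3, the most abundant TET gene here and the one that acts on the paternal genome in the zygote, had 43.5, 39.4 and 64.8 CPM in the young samples and 40.3, 40.0 and 39.1 CPM in the aged samples. The aged values were nearly equal to each other, and young replicate 3 stood above the other 5 samples. The log2 fold change was -0.31 (SE 0.20, 95% interval -0.78 to 0.17, adjusted p = 0.593), and without young replicate 3 it was -0.058, while it ran from -0.44 to -0.29 when any other sample was left out.

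Dnmt1, the maintenance enzyme, had the smallest log2 fold change of the 6 members. It had 54.9, 65.0 and 50.8 CPM in the young samples and 61.2, 49.97 and 58.3 CPM in the 127-, 131- and 136-week samples. The highest and the next-to-lowest of the 6 values were both young, so the ages were interleaved. The mean was 56.9 ± 7.31 CPM in the young group and 56.5 ± 5.84 CPM in the aged group (SD, n = 3 each). The log2 fold change was -0.0099 (SE 0.15, adjusted p = 0.987), and its 95% interval, -0.37 to 0.35, corresponds to an aged level between 0.774 and 1.27 times the young level.

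The de novo enzymes also overlapped between the ages. Dnmt3a had 33.7, 29.3 and 54.0 CPM in the young samples and 48.3, 37.5 and 28.6 CPM in the 127-, 131- and 136-week samples. The highest value was young and the lowest aged, and the log2 fold change was -0.032 (SE 0.28, 95% interval -0.70 to 0.64, adjusted p = 0.981). Dnmt3b, which is needed for methylation of centromeric repeats, had 5.81, 3.25 and 11.6 CPM in the young samples and 13.6, 7.23 and 9.42 CPM in the aged samples. Its aged mean, 10.1 ± 3.26 CPM, was above the young mean, 6.90 ± 4.30 CPM (SD, n = 3 each), with overlapping ages. The log2 fold change was 0.55 (SE 0.47, 95% interval -0.56 to 1.66, adjusted p = 0.704). It was 1.15 without young replicate 3, 0.21 without young replicate 2 and 0.27 without the 127-week sample, so its size rested on single libraries, and no call was made in any of these fits. Among the 4 samples rich in Lars2 and Rn45s counts, the aged minus young log2 CPM was 0.85 for Dnmt3b and 0.060 for Dnmt3a, and between the 2 samples with few it was 0.22 and -0.16.

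**Figure D4:**
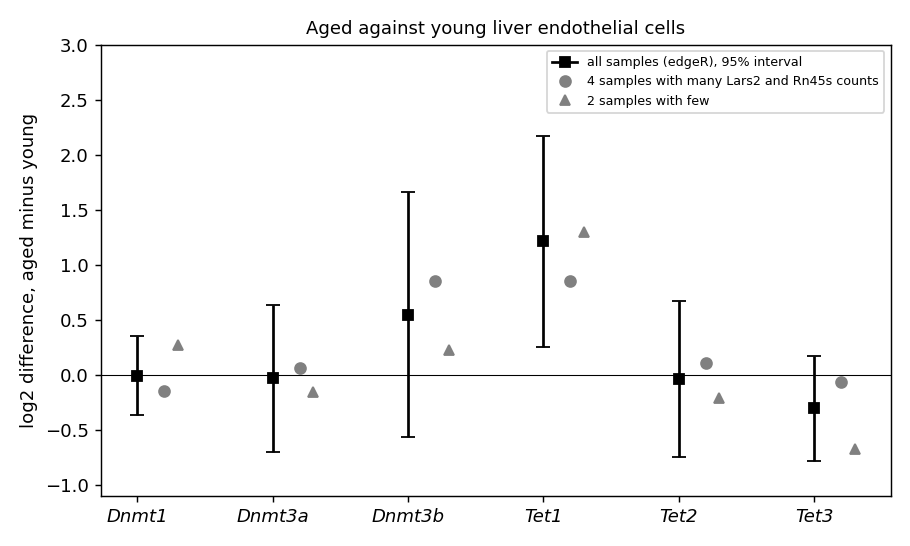
Log2 difference of aged minus young ECs for each gene. Squares give the edgeR estimate over all 6 samples with its 95% interval, circles the difference within the 4 samples with many Lars2 and Rn45s counts and triangles that between the 2 samples with few. Only the Tet1 interval, 0.25 to 2.17, lies wholly above 0 before adjustment over all genes.

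The relation of the de novo enzymes to each other also varied between samples. The ratio of Dnmt3a to Dnmt3b in FPKM was 2.31, 3.72 and 1.91 in the young samples and 1.46, 2.14 and 1.27 in the 127-, 131- and 136-week samples, and the ages overlapped. Dnmt3a and Dnmt3b together reached 0.465, 0.301 and 0.853 times the FPKM of Dnmt1 in young ECs, and 0.703, 0.583 and 0.464 times in aged ECs. The 2 highest of these ratios belonged to young replicate 3 and the 127-week sample.

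Of the 6 members, 3 were separated by the share of Lars2 and Rn45s counts and 1 by age. In young replicate 3 and the 127-week sample, Dnmt3a, Dnmt3b and Tet2 were each higher than in all of the other 4 samples, which was the case for 16.6% of all genes tested, while 14.1% were lower in both. The mean log2 difference between the 2 samples with few and the 4 with many such counts was 1.01 for Dnmt3b, 0.71 for Tet2, 0.66 for Dnmt3a, 0.46 for Tet1, 0.33 for Tet3 and -0.025 for Dnmt1. The 2421 genes higher in the samples with few had a median exon length of 4363 bases, against 3135.5 bases for the 2061 genes that were lower. Lengths were known for 90.5% and 91.4% of them. Dnmt3a and Tet2 were above both medians, as were the other members. With this split as a second term, the edgeR log2 fold change with age was 1.17 for Tet1 (adjusted p = 0.246), 0.65 for Dnmt3b (adjusted p = 0.334) and -0.27 for Tet3 (adjusted p = 0.399), and lay between -0.0082 and -0.0021 for Dnmt1, Dnmt3a and Tet2. The part of the split in the members' levels was not tested beyond these values.

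No gene in a list of methylation cofactors and guides passed the test. The list is broad, and not every gene in it encodes a guide of DNA methylation. Of its 18 genes 16 were tested, of which 0 had an unadjusted p below 0.05 in edgeR, against 12.6% of all genes. The median log2 fold change was 0.048. Uhrf1, which brings Dnmt1 to hemimethylated DNA, had 7.67, 11.8 and 7.19 CPM in young and 6.33, 4.86 and 12.8 CPM in aged samples, with a log2 fold change of -0.15 (SE 0.40, adjusted p = 0.930). Its relative Uhrf2 had -0.15 (adjusted p = 0.856). The highest values were those of Usp7, a deubiquitinase that binds Dnmt1, with 0.28 (adjusted p = 0.766), and of the chromatin remodeller Hells, with 0.28 (adjusted p = 0.847). Both samples with few Lars2 and Rn45s counts stood above the other 4 for 9 of the 16 genes, among them Usp7 and Uhrf2, and below them for 3, among them Hells. Over all genes tested they stood above for 16.6% and below for 14.1%. Of the lists described below, they stood above for 9 of 20 demethylation genes and below for 1. For 20 genes of S phase and mitosis it was 1 each way. They stood above for 1 of 8 methyl-CpG readers, 2 of 21 methionine cycle genes and 2 of 4 germline genes, and below for none of these. Dnmt3l, the catalytically inactive partner of Dnmt3a in germ cells, had 0 or 1 count in each sample.

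Proteins that read methylated CpGs were tested for 8 of 8 genes, with a median log2 fold change of -0.021. Mbd1 had an unadjusted p below 0.05, with 83.7, 102 and 130 CPM in young and 51.5, 91.9 and 53.5 CPM in aged samples and a log2 fold change of -0.68 (adjusted p = 0.371). The 131-week sample overlapped the young range. Zbtb38 had a log2 fold change of -0.63 (adjusted p = 0.472), Mbd2 of 0.45 (adjusted p = 0.424) and Zbtb4 of 0.38 (adjusted p = 0.413). Zbtb4 was the only 1 of the 8 whose ages did not overlap, against 17.9% of all genes.

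Of 23 genes of active demethylation and TET partners 20 were tested, with a median log2 fold change of 0.11. At an unadjusted p below 0.05, 3 were higher in aged ECs, namely Cxxc5, Gadd45a and the endonuclease Apex1, and 1, the uracil glycosylase Smug1, was lower. Of all genes tested 8.32% were higher and 4.32% lower at this level. Cxxc5, a CXXC zinc finger protein related to the TET partner Cxxc4, had 7.67, 7.54 and 4.54 CPM in young and 25.6, 10.4 and 25.9 CPM in the 127-, 131- and 136-week samples, with no overlap. Its log2 fold change was 1.65 (SE 0.40, adjusted p = 0.235). Gadd45a, a stress gene linked to DNA demethylation, had a log2 fold change of 1.10 (adjusted p = 0.332), with 1.68 among the samples with many Lars2 and Rn45s counts and -0.12 between those with few. Smug1 had -0.46 (adjusted p = 0.378), without overlap of the ages, and Idh1, which makes the 2-oxoglutarate that TET enzymes use, had -0.24 (adjusted p = 0.727). Apex1 was named after its values were seen, and it had 0.92 (adjusted p = 0.338). Tdg could not be tested, since it had at most 3 counts in each sample. Its copy Gm9855 had 0 counts in each sample, whereas the FPKM table lists 1.60 to 2.78 FPKM for Tdg and 9.29 to 14.3 FPKM for Gm9855, so the level of Tdg is uncertain.

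**Figure D5:**
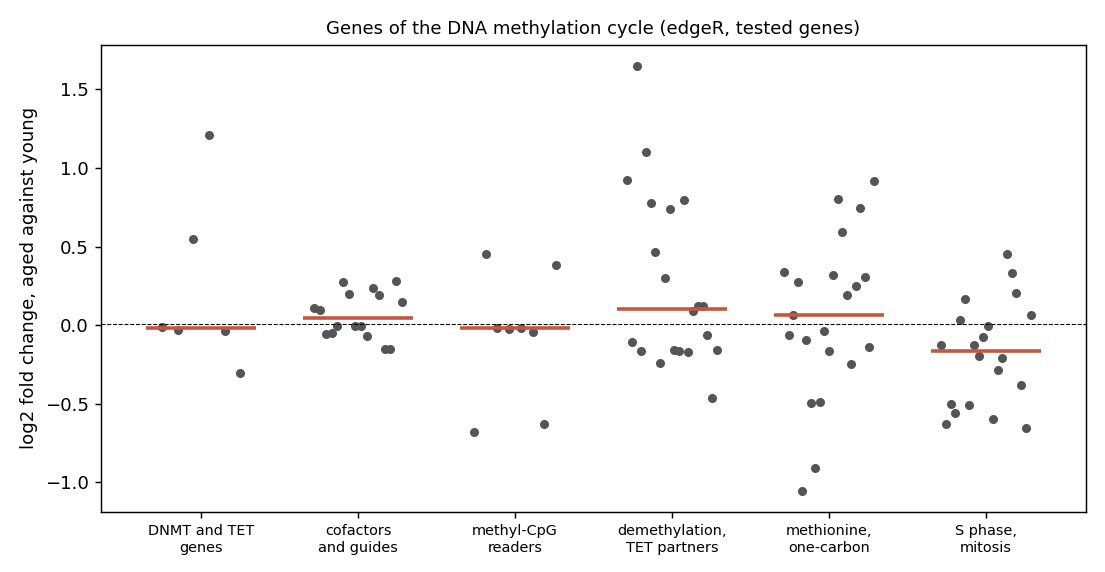
Log2 fold change (edgeR, aged against young) of every tested gene in 6 groups, with the median of each group as a red line and that of all genes tested as a dashed line. The medians lie between -0.16 for S phase and mitosis and 0.11 for active demethylation, and Tet1 is the top point of the first group.

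The methyl donor of the DNMTs, S-adenosylmethionine, is made in the methionine cycle, for which 21 of 21 genes were tested. The median log2 fold change was 0.066. Mat2a, the methionine adenosyltransferase of non-hepatic cells, had 503 to 619 CPM in young and 499 to 578 CPM in aged samples (log2 fold change -0.034, standard error 0.16, adjusted p = 0.959). Ahcy, which clears the inhibitor S-adenosylhomocysteine, had -0.062 (SE 0.21, adjusted p = 0.946). The folate carrier Slc19a1 was the only gene of this group with an unadjusted p below 0.05, a level that 12.6% of all genes passed. It had 2.44 to 3.00 CPM in young and 4.71 to 6.21 CPM in aged samples, no overlap and a log2 fold change of 0.92 (SE 0.29, adjusted p = 0.299). Mthfd1l, of mitochondrial folate metabolism, had 0.80 (adjusted p = 0.521). Bhmt and Gnmt, abundant enzymes of hepatocytes, had the lowest values, -1.05 (adjusted p = 0.584) and -0.91 (adjusted p = 0.596). Aged minus young, their log2 CPM differed by -1.53 and -1.37 among the samples with many Lars2 and Rn45s counts. Between those with few the sign was reversed, with 1.41 and 0.64. Beside these 2 genes, the summed level of 8 hepatocyte markers was 105 to 158 CPM in young and 70.0 to 90.1 CPM in aged samples. Young replicate 3 had the highest sum, 158 CPM, and the lowest young levels of Bhmt and Gnmt, 4.45 and 4.61 CPM. The part of hepatocyte RNA in the values of Bhmt and Gnmt was not tested.

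Since Dnmt1 acts at replication, 20 genes of S phase and mitosis were set beside it, all of them tested. The median log2 fold change was -0.16. Of all genes 12.6% had an unadjusted p below 0.05, and of this list 1 gene had. This was Pcna, the sliding clamp that binds Dnmt1 at the fork, with 73.9 to 80.2 CPM in young and 88.1 to 105 CPM in aged samples, a log2 fold change of 0.33 (SE 0.13, adjusted p = 0.369) and no overlap of the ages. Mki67, the proliferation marker, had 1.79, 6.81 and 8.14 CPM in young and 12.9, 1.44 and 8.57 CPM in the 127-, 131- and 136-week samples, a log2 fold change of 0.45 (adjusted p = 0.877). Top2a and Birc5 had the lowest values, -0.65 (adjusted p = 0.682) and -0.63 (adjusted p = 0.712).

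Most germline genes that promoter methylation keeps silent in somatic cells were near the floor at both ages, and Rhox5 and Brdt had the highest mean CPM. Of 16 such genes 4 passed the filter on low counts and 5 had 0 counts in every sample, and the sum over all 16 was 2.84 to 3.75 CPM in young and 2.61 to 3.49 CPM in aged samples. Dazl, whose promoter is shown above, had 0.233 CPM or less in each sample. Brdt had 12 to 38 counts per sample, and its ages overlapped. Rhox5, the most abundant of the 16, had 2.01, 1.53 and 1.55 CPM in young and 0.172, 1.05 and 1.22 CPM in the 127-, 131- and 136-week samples. Its ages did not overlap, and its log2 fold change was -1.06 (SE 0.71, adjusted p = 0.595). The 127-week value of Rhox5 rests on 5 counts. Aged minus young, its log2 CPM differed by -0.47 among the samples with many Lars2 and Rn45s counts and by -1.61 between those with few. Ddx4, an RNA helicase of germ cells, went the other way and was named after its values were seen. It had 0 counts in each young sample and 2, 2 and 10 counts in the 127-, 131- and 136-week samples, and it did not reach the level needed for the edgeR test. The 127- and 131-week values, 0.0688 and 0.0778 CPM, were below the CPM that 3 counts stood for. Its two-sided exact permutation p of 0.1 follows from this separation alone and adds nothing to it. Of all genes tested, 9.62% were higher and 8.33% lower in every aged than in every young sample.

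Genes with the sample pattern nearest to each member were found among 12453 tested genes with a mean CPM of at least 1, by the root mean square difference of centred log2 values over the 6 samples. The nearest were Slx4ip and Zfp579 for Dnmt1 (0.032 and 0.046), Mccc1 and Nbeal1 for Dnmt3a (0.048 and 0.057), and Snapc4 and Hnrnpa1 for Dnmt3b (0.15 and 0.20). For Tet1 they were Zfpm1 and Stk10 (0.15 and 0.16), for Tet2 Arid4a and Osbpl10 (0.041 and 0.045), and for Tet3 Dnajb11 and Tesk1 (0.047 and 0.052). The members' own root mean square spread was 0.14 for Dnmt1, 0.26 for Tet3, 0.34 for Dnmt3a and Tet2, 0.58 for Tet1 and 0.64 for Dnmt3b. No member was among the nearest of another.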

How the data were processed

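Per the labels and the methods, liver ECs were sorted by FACS, RNA libraries were made with the TruSeq Sample Prep v2 kit, and 75-base single-end reads were taken on an Illumina HiSeq. The authors called bases with CASAVA 1.8.2 and mapped reads to mm9 with TopHat2 2.1.0. The deposited counts are whole read counts per gene symbol for 24421 symbols, without normalization, and the counting program, annotation and strand setting are not given in the sources used here. The deposited FPKM values, for 24346 symbols, were made by the authors with Cuffnorm 2.2.1, which scales between samples. They serve here for levels between genes.

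From the counts, 14612 genes that reached a CPM of 0.5 in 1 or more samples were kept, normalized by TMM and tested with edgeR 4.0.16 (R 4.3.3), aged against young, with Benjamini-Hochberg adjustment over all of them. Adjusted p is from this test unless another is named. A gene was called where adjusted p was under 0.05 and its log2 fold change past 1 in size. Standard errors are the log2 fold change over the square root of F, and printed CPM use the TMM factors. Differences within the samples with few or many Lars2 and Rn45s counts (split at 2% of counts) are of log2(CPM + 0.5). The exact permutation tests of the members were two-sided. limma 3.58.1 and DESeq2 1.42.0 gave alternatives. The edgeR script was tested on simulated data. No 2 replicates of an age were alike within sampling noise (smallest chi-square per degree of freedom 21.3). Intervals cover these samples only, and reads that carry no molecular identifier can be copies of 1 molecule.

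The members, gene lists and tests were chosen with earlier results of these data known. Named are all members, in each list the 2 highest and 2 lowest log2 fold changes with a mean CPM of at least 1, a few fixed genes (Uhrf1, Tdg, Mat2a, Ahcy, Mki67 and Ptprc), and the 2 nearest patterns for each member. The values of 1 further fixed gene are not reported here. Marker lists not described in the report gave the following summed CPM in young and aged samples, respectively. B and plasma cell markers had 1.10 to 4.35 and 1.83 to 21.5, Kupffer and myeloid markers 49.5 to 94.7 and 34.3 to 516, stellate and mural markers 112 to 398 and 188 to 656, and platelet markers 17.7 to 25.1 and 17.9 to 21.0.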

Additional observations from a re-analysis of the deposited data

How the results depend on the processing

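No member was called in any of the 17 alternatives tried for each. Tet1 and Dnmt3b were higher and Tet3 lower in aged ECs in all of them, and the adjusted p of Tet1 ran from 0.101 (DESeq2) to 0.756 (leukocyte term). On log2(FPKM + 1) the Tet1 difference was 0.19, since the pseudocount exceeds its level, and on log2(FPKM + 0.1) it was 0.79. Dnmt3b was 1.10 and Tet3 -0.095 with limma-voom and sample quality weights. Estimates near 0 changed sign. Dnmt1 was 0.0013 with upper quartile factors. With limma-voom and sample quality weights Dnmt3a was 0.24 and Tet2 0.26, and with the leukocyte term they were 0.13 and 0.0042. Leaving out 1 sample at a time gave -0.085 to 0.097 for Dnmt1, -0.24 to 0.28 for Dnmt3a, 0.21 to 1.15 for Dnmt3b, 0.91 to 1.37 for Tet1, -0.25 to 0.32 for Tet2 and -0.44 to -0.058 for Tet3. Dnmt1 changed sign without young replicate 2 (0.097) and the 131-week sample (0.072), Dnmt3a without young replicate 3 (0.28) and the 136-week sample (0.14), and Tet2 without young replicate 3 (0.32), the 131-week sample (0.060) and the 136-week sample (0.056). The count of members whose ages did not overlap was 1, and 1 to 3 with a sample left out, 3 of them without young replicate 3 (Dnmt3b, Tet1 and Tet2, where 33% of all genes did not overlap) and 2 without young replicate 2 (Tet1 and Tet3, where 23.2% did not). Over all genes the calls numbered 0, against 4 without a filter on low counts, 474 with DESeq2, 15 with limma-voom, 2 with the term for Lars2 and Rn45s counts, 16 with the leukocyte term, and 0 to 1 with a sample left out (1 without the 131-week sample). Beyond the alternatives' own construction, the cause of these differences was not tested. No paired analysis was run, since the labels link no young sample to an aged sample. Depth limits Tet1 most, with 25 to 154 counts.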
